A study of Mus musculus with 3 samples.

Results

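The comparison described here set Eif4g3 siRNA against control siRNA in the heavy polysome RNA of cultured mouse lymph node stromal cells, read on 1 of the 3 arrays of the series. Its members were the genes measured in both channels of that array, which means that at least 1 probe of the gene stood well above background in the Eif4g3 siRNA channel and in the control channel. There were 14402 such genes of the 27745 gene names on the array design, and they rested on 21245 of 41174 probes (51.6%). The light polysome array measured 14094 genes and the top fraction array 10943.

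The product of Eif4g3 is eIF4GII, the scaffold of the eIF4F complex. This complex holds together the cap-binding protein eIF4E, the RNA helicase eIF4A and, through eIF3, the small ribosomal subunit, and so brings ribosomes to the capped end of an mRNA. Spinning a cell lysate through a sucrose gradient spreads mRNAs by the number of ribosomes they carry, and the heavy polysome fraction holds those with many, which are generally the mRNAs being translated most actively or those with long coding sequences. Lymph node stromal cells are the fibroblast-like and vascular cells that build the scaffold of the node, lay down its matrix and make chemokines for lymphocytes.

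BALB/c stromal cells were transfected with 400 pmol of Eif4g3 siRNA in a lipid reagent, and they were set against the same kind of culture transfected with 400 pmol of control siRNA. The medium was replaced after 24 h and the cells were collected at 48 h. For each siRNA 7 plates were combined before lysis and a gradient of 10% to 60% sucrose, whose fractions were combined into heavy polysome, light polysome and top RNA, and 200 ng of RNA was labelled. The age of the animals and the siRNA sequences are not given in the sources used here. On every array the Eif4g3 siRNA RNA was in Cy5 and the control siRNA RNA in Cy3, with no dye swap, so dye and siRNA cannot be told apart. There was 1 heavy polysome array, so none of the values below has a replicate, and no test was run. In pooled lysates of this kind, fewer cells of a type and less of an mRNA per cell cannot be told apart.

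On the heavy array 0 spots were saturated, 2104 probes stood above background in the control channel alone and 114 in the siRNA channel alone. The median background-subtracted signal of the measured probes was 306 in the siRNA channel and 891 in the control channel, a gap that the within-array normalisation removed. Ratios are log2 values with Eif4g3 siRNA on top and control siRNA below. Their median was -0.01 over the 14402 genes, with an SD across genes of 0.32. Probes printed 10 times had a median SD of 0.09 between their spots, and genes with several measured probes had a median SD of 0.15 between probes. The error printed after ± is the scanner software's error of the log ratio, turned to log2 and combined over a gene's probes. It covers the spot and not the experiment. For the spike-in probes, whose ratios are set by the amounts added to the 2 labelling reactions, the slope of observed on expected log ratios was 0.788, with r = 0.988, per the file headers, so observed log ratios were smaller in size than those set by the amounts added.

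A gene was counted as higher or lower when its log2 ratio reached 1 or -1, which is 2-fold. By this limit 73 genes (0.507% of those measured) were higher and 44 (0.306%) lower after Eif4g3 siRNA. Probes above background in 1 channel alone could not enter these counts. They numbered 2104 in the control channel and 114 in the siRNA channel, which was dimmer, so lower genes were more easily missed. These counts depended on signal, because the background correction pulls the ratios of dim spots towards 0. Among the 3601 genes with the least signal 2 were higher and 0 lower, against 24 higher and 19 lower among the 3601 with the most. Of the 73 higher genes 64 were read by 1 probe, and of the 44 lower genes 38 were. On the light polysome array, where 56 genes (0.397%) were higher and 41 (0.291%) lower, 26 of the 73 were higher too and 9 of the 44 lower too. On the top fraction array, where 47 (0.429%) were higher and 29 (0.265%) lower, 4 of the 64 measured higher genes and 3 of the 35 measured lower genes passed the same limit. The median ratio of the 73 genes was 1.15 in heavy polysomes, 0.92 in light polysomes and 0.55 in the top fraction, and that of the 44 genes was -1.16, -0.58 and -0.17. Both sets were picked by their heavy polysome ratio. Such picking by itself makes the ratios on other arrays smaller in size and the overlaps partial, so no trend across fractions is read from them. The 3 arrays share the lysates, the dye order and 1 slide, so these values stand side by side and the difference between fractions was not tested. The measured probes of the top array were dim, with median background-subtracted signals of 89.8 (Eif4g3 siRNA) and 87.3 (control). The slope of its ratios on the scanner software's ratios was 0.576, against 0.712 on the heavy array. Ratios in the top fraction are therefore pulled further towards 0 by the background correction.

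**Figure D1:**
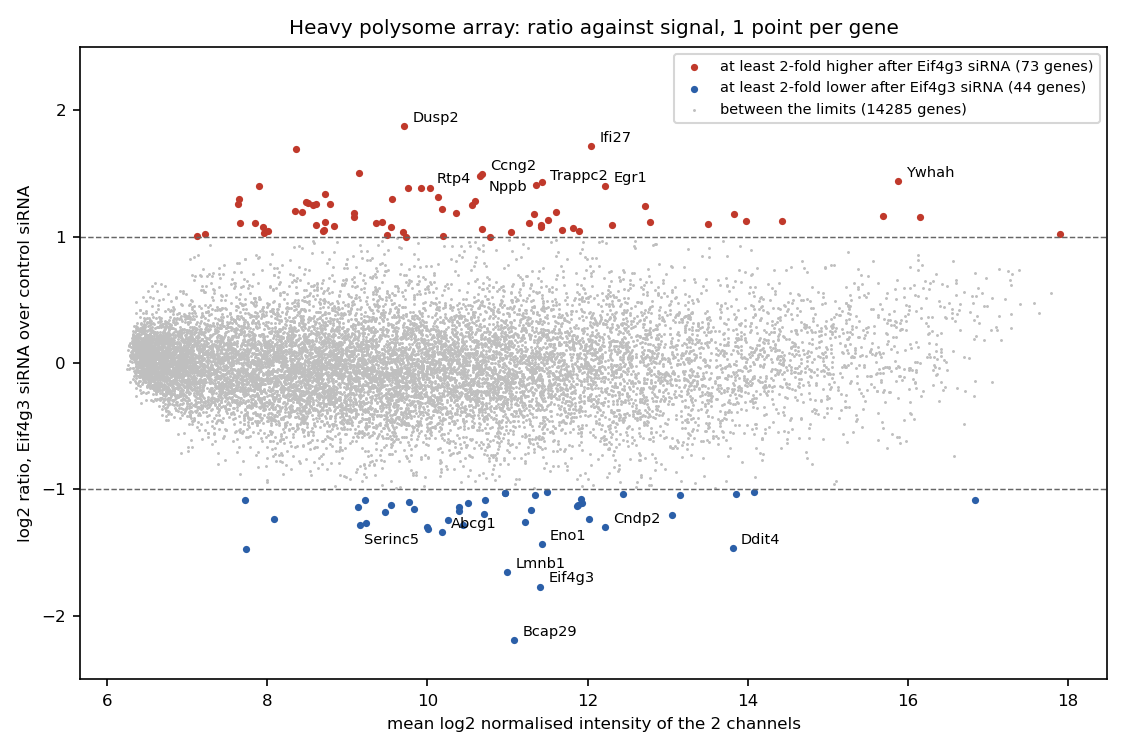
Log2 ratio, Eif4g3 siRNA over control siRNA, on the vertical axis against the mean log2 normalised intensity of the 2 channels on the horizontal axis for the 14402 genes of the heavy polysome array, 1 point per gene. Red points are the 73 genes at least 2-fold higher and blue points the 44 genes at least 2-fold lower, with Dusp2 at the top, Bcap29 at the bottom and ratios drawn in towards 0 at low signal.

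The siRNA target was among the lowest genes. Eif4g3 had a normalised intensity of 1470 after Eif4g3 siRNA and 5008 after control siRNA in heavy polysomes, a log2 ratio of -1.77 ± 0.19. It stood at -1.06 in light polysomes and at -0.43 ± 0.16 in the top fraction, where it was dim, with 108 against 145. Its 2 probes lie at chr4:137475547-137478087 and chr4:137478284-137478343 on the plus strand (mm8). In heavy polysomes they gave 1209 and 1788 after Eif4g3 siRNA against 3847 and 6518 after control siRNA. Its 2 relatives stayed short of 2-fold. Eif4g1, the main eIF4G of most cells, had 769 after Eif4g3 siRNA and 1000 after control siRNA (-0.38 ± 0.15), but its probes disagreed, with 2866 against 4925 for one and 206 against 203 for the other. Eif4g2, which encodes a scaffold that lacks the eIF4E binding site, had 3424 against 4240 (-0.31 ± 0.10), and its 4 probes lay between -0.44 and -0.13. Of the partners of eIF4G in the list of cap-binding genes, Eif4e itself had -0.01 and the helicase gene Eif4a1 -0.32, with its 3 probes between -0.60 and 0.11. Eif4e2 and Eif4e3, which encode other cap-binding proteins, were the highest of the 18 measured members at 0.52 ± 0.11 and 0.46 ± 0.16, though the 4 probes of Eif4e2 ranged from 0.05 to 0.87.

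Among the 15 highest genes that the naming rule picks, the most raised was Dusp2, a phosphatase that switches off MAP kinases, with 1606 after Eif4g3 siRNA and 438 after control siRNA (1.87 ± 0.28). It stood at 1.73 in light polysomes and 1.76 in the top fraction, and these values lie within its spot error of each other. Its 1 probe lies at chr2:127029635-127029694 on the plus strand (mm8). Egr1, a transcription factor of the immediate early response, did likewise, with 7768 against 2945 in heavy polysomes (1.399 ± 0.24), 1.21 in light polysomes and 1.29 in the top fraction. Nppb, the gene of B-type natriuretic peptide, varied more between the arrays. Its heavy polysome intensity was 4269 after Eif4g3 siRNA and 1610 after control siRNA (1.41 ± 0.17), and it was higher in light polysomes (1.13). In the top fraction it was near 0, with 115 after Eif4g3 siRNA and 121 after control siRNA (-0.07 ± 0.15). Nppb was dim there, and dim ratios are compressed, so no difference between fractions is read from this value. Ccng2, a cyclin linked to arrest of growth, had 2759 against 977 in heavy polysomes (1.498 ± 0.25). In the top fraction it had 0.29 and was dim too, with 177 against 145.

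Several others of the 15 work on membranes and signals. Ywhah, which encodes the eta form of the 14-3-3 adaptor proteins, had 98863 after Eif4g3 siRNA and 36483 after control siRNA (1.44 ± 0.24) and 1.61 in light polysomes. The other 6 members of that family lay below 0, between -0.67 for Ywhag and -0.18 for Ywhaq. Trappc2, of a complex that tethers vesicles to the Golgi, had 4532 against 1678 (1.43 ± 0.25). Eps15, an endocytic adaptor, averaged 1.25 ± 0.17, with 0.88 and 1.61 for its 2 probes, so 1 of them was short of 2-fold. Lman1l had 1406 against 537 (1.39 ± 0.24) and Pqlc3 1571 against 601 (1.39 ± 0.24). The remaining 6 of the 15, Ifi27, Rtp4, Oasl2, Isg15, Oas1f and Bst2, belong to the interferon response and are given further on.

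Among the 15 lowest, Bcap29 stood below the siRNA target itself. Its product sits in the membrane of the endoplasmic reticulum, where it takes part in quality control and export of membrane proteins. Bcap29 had 1017 after Eif4g3 siRNA and 4640 after control siRNA (-2.19 ± 0.29). It was low on the other arrays too, at -1.92 in light polysomes and -1.19 in the top fraction. It was read by 1 probe, at chr12:32181568-32181627 on the minus strand (mm8). Its relative Bcap31 had -0.11. Lmnb1, the gene of lamin B1 in the nuclear lamina, had 1154 against 3633 in heavy polysomes (-1.65 ± 0.25), -0.82 in light polysomes and 0.13 in the top fraction. Eno1, a glycolytic enzyme gene, followed the same order, with 1673 against 4524 (-1.43 ± 0.24), then -0.69 and 0.38. Ddit4, whose product restrains mTOR signalling under stress, had 8673 after Eif4g3 siRNA and 23939 after control siRNA (-1.46 ± 0.24), -1.03 in light polysomes and -0.07 in the top fraction. For these 3 genes the heavy polysome ratio was the lowest of the 3 fractions and the top fraction ratio lay near or above 0. This was not particular to them, and picking by the heavy polysome ratio favours it. Cndp2, Usp5 and Ptprn, also of the 15 lowest, had -0.17, -0.10 and 0.03 in the top fraction, where they were dim. In the top fraction Lmnb1 and Eno1 were dim, with 189 and 261 after Eif4g3 siRNA, and dim ratios are compressed. Ddit4 had 2782 there.

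The rest of the 15 lowest encode proteins of varied function, several of them of the secretory pathway. Plat, the tissue plasminogen activator, had 1545 after Eif4g3 siRNA and 3691 after control siRNA (-1.26 ± 0.17), and was -0.48 in light polysomes. Dnajc1, a co-chaperone of the endoplasmic reticulum, had 797 against 1882 (-1.24 ± 0.14) and Canx, the lectin chaperone calnexin, 2530 against 5531 (-1.13 ± 0.13), each over 3 probes. Copb1, a subunit of the COPI vesicle coat, had 2699 against 6358 (-1.24 ± 0.24) in heavy polysomes and -0.33 in light polysomes. The sterol exporter gene Abcg1 had 732 against 1850 (-1.34 ± 0.24), and Serinc5, a membrane protein gene, had 651 against 1621 (-1.32 ± 0.24). The peptidase gene Cndp2 had 3045 against 7480 (-1.30 ± 0.23) and the deubiquitinase gene Usp5 1103 against 2526 (-1.195 ± 0.23). Ptprn, which encodes a protein of secretory granules, had 472 against 1066 (-1.18 ± 0.23) in heavy polysomes and -0.58 in light polysomes.

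**Figure D2:**
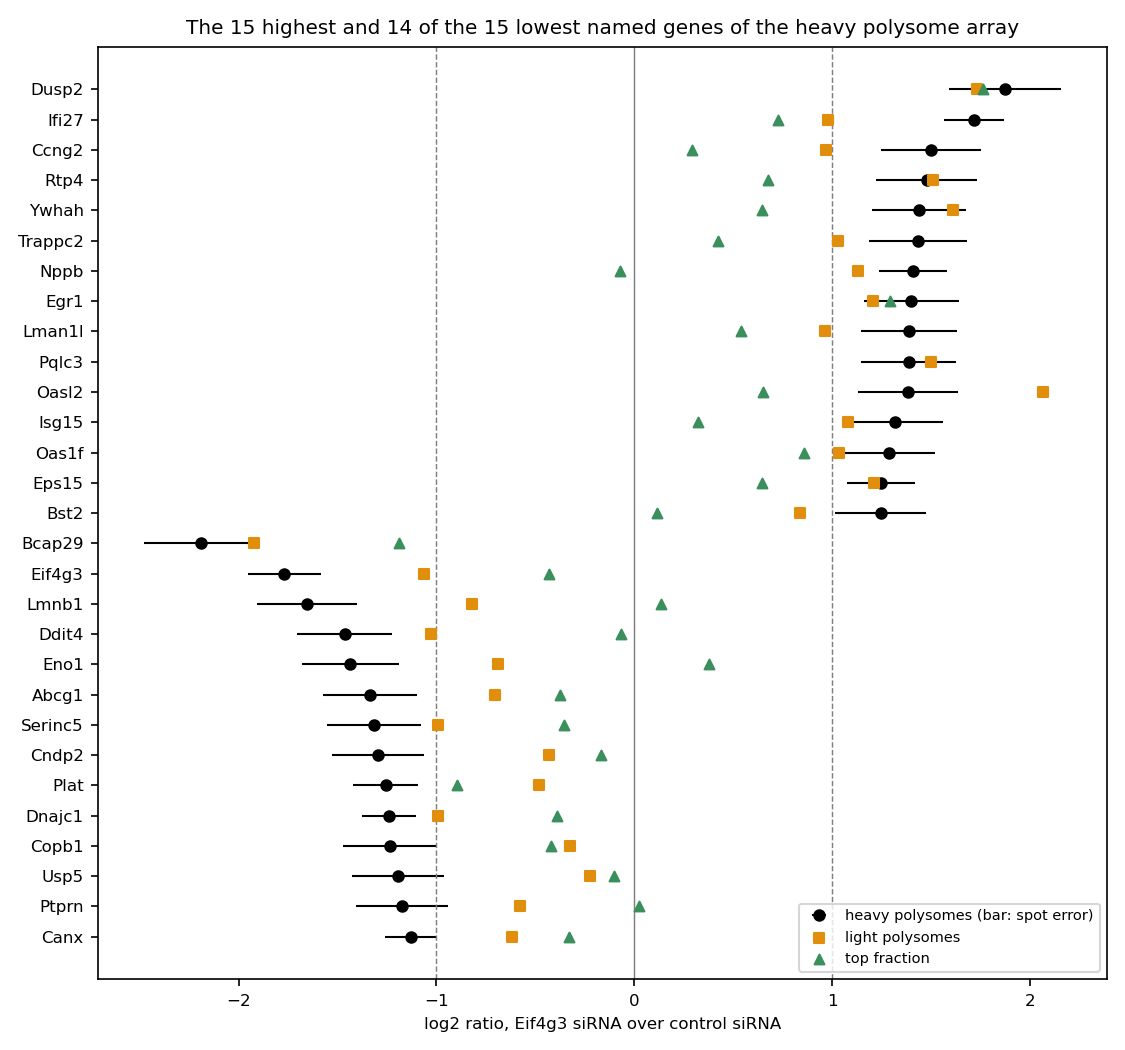
Log2 ratio, Eif4g3 siRNA over control siRNA, for the 15 highest and 14 of the 15 lowest named genes of the heavy polysome array, with heavy polysomes as black circles (bar: spot error), light polysomes as squares and the top fraction as triangles. Dusp2 and Egr1 sit near the same value in all 3 fractions, while Lmnb1 and Eno1 lie at -1.65 and -1.43 in heavy polysomes, against 0.13 and 0.38 in the top fraction, and Pqlc3 has no top fraction value.

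Agreement between probes was 1 internal check that the array offered for a gene. Of the higher genes 9 had at least 2 measured probes, and in 3 of these all probes passed 2-fold. Of the lower genes 6 had at least 2, and in 4 of these all passed. The check thus held for 7 genes, namely Ifi27, Nppb and Mdfi among the higher and Eif4g3, Plat, Dnajc1 and Slit2 among the lower. The same probes gave the mean by which a gene was called, so the call itself favours this outcome. Nppb had 5231 and 3483 after Eif4g3 siRNA at its 2 probes, against 2202 and 1177 after control siRNA. Slit2, a secreted guidance cue, had 4056 and 1007 against 8152 and 2051, close to the limit at -1.02 ± 0.16. Mdfi, an inhibitor of myogenic transcription factors, had 207 and 189 against 103 and 94.3, so both of its probes were dim and they overlap in position. Plat had 3191 and 748 after Eif4g3 siRNA, against 8368 and 1628 after control siRNA, and the 3 probes of Dnajc1 lay between -1.44 and -1.02.

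**Figure D3:**
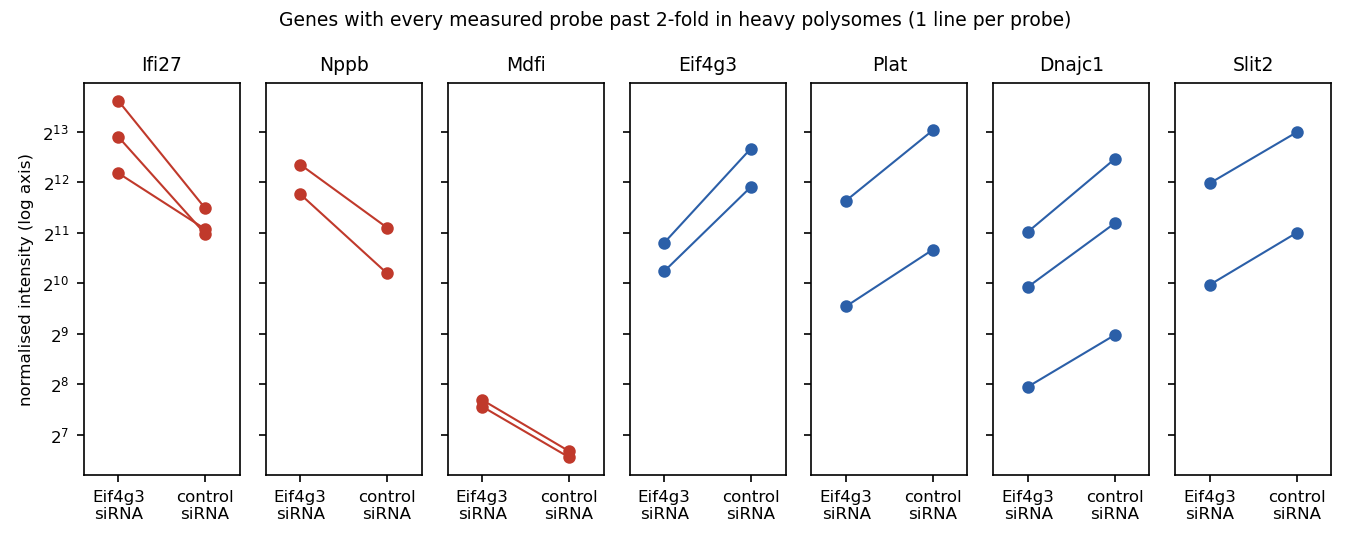
Normalised intensity on a log axis in the Eif4g3 siRNA channel (left) and the control siRNA channel (right) of the heavy polysome array for the 7 genes with every measured probe past 2-fold, 1 line per probe. The lines of Ifi27, Nppb and Mdfi slope down to the control channel and those of Eif4g3, Plat, Dnajc1 and Slit2 slope up to it, with Mdfi the dimmest.

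Of the 24 gene lists, that of the type I interferon response held the most genes past 2-fold on the higher side. Interferon from infected or stressed cells acts through the receptor chains Ifnar1 and Ifnar2, the kinases Jak1 and Tyk2 and factors such as Stat2 and Irf9, which bind a promoter element and switch on antiviral genes. Of 60 measured genes of this list, 12 were higher and 0 lower at 2-fold, and 47 lay above 0. Of all measured genes 0.507% were higher by that limit, 0.306% lower, and 48.3% lay above 0. The median was 0.27 in heavy polysomes, 0.39 in light polysomes and 0.32 in the top fraction. The 40 measured antiviral effectors had a median of 0.36 with 9 higher, and the 18 sensor and signalling genes had 0.11 with 2 higher.

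Ifi27, now named Ifi27l2a and encoding a small membrane protein, had 7640 after Eif4g3 siRNA and 2327 after control siRNA (1.72 ± 0.15). Its 3 probes gave 2.12, 1.92 and 1.11 and lie at 2 separate places on chromosome 12, so related genes may share its signal. Rtp4, which encodes a receptor transporter protein induced by interferon, had 2683 against 964 (1.48 ± 0.26) and was as high in light polysomes (1.51). Oasl2, of the oligoadenylate synthetase family, had 1694 against 649 (1.38 ± 0.25), and stood higher in light polysomes, at 2.07 ± 0.29. Oas1f, another member of that family and not on the list, had 2412 against 989 (1.29 ± 0.24). Isg15, a ubiquitin-like modifier, had 1767 against 709 (1.32 ± 0.25), though the file places its probe on chromosome 17 (mm8) and RefSeq places the gene on chromosome 4 (GRCm38.p6), and which copy it reads was not tested. Bst2, which tethers budding virus to the cell surface, had 10397 against 4385 (1.25 ± 0.23) in heavy polysomes and 0.12 in the top fraction. The chemokine gene Cxcl10, which draws T cells, had 682 against 285 (1.26 ± 0.24). The other 6 of the 12 higher genes, named here after their values were seen, were Ifi44 (1.30), Phf11 (1.104), Gbp3 (1.08), Usp18 (1.08), Mx2 (1.02) and Ifih1 (1.0001), the last of which encodes the RNA sensor MDA5.

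The members of the pathway upstream of these genes had other values. The kinase genes Jak1 and Tyk2 were the lowest of the list, with 1660 after Eif4g3 siRNA and 2532 after control siRNA for Jak1 (-0.61 ± 0.13) and 278 against 393 for Tyk2 (-0.50 ± 0.22). Stat2 had 0.09 and Isgf3g, now named Irf9, 0.79. The receptor genes Ifnar1 and Ifnar2 had 0.26 and 0.11. Ifi202b and Ifi204, DNA sensor genes of 1 cluster, had -0.38 and -0.37, and Gbp2 lay at -0.20 where its relative Gbp3 was 2-fold higher. Antigen presentation genes, which interferon also raises in many cells, had a median of 0.04 over 23 measured genes, from -0.81 for the loading chaperone Calr to 0.69 for H2-T10, with B2m, the light chain of class I molecules, at 0.56 ± 0.11.

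The promoters of the interferon genes are shown because the letters of their response element are frequent in them. The element was searched as TTTC, any 2 bases and TTTC, on both strands, in RefSeq promoter windows, which run from 250 bases before to 50 after each gene's start (GRCm38.p6). It was found in 22 of the 46 measured list genes that have a window (47.8%), and in 6 of the 8 such genes that were 2-fold higher. Isg15 is among these 6, though its probe is placed on another chromosome than the gene whose promoter is shown. The element was found in 3.81% of the 8610 measured genes with a window and in 3.44% of all 32851 windows. Among all higher genes with a window it was found in 7 of 50, and among the lower in 1 of 24. Those 7 include the 6 list genes, so they are not a separate count. Of the list genes short of 2-fold 16 of 38 held it, Stat2, Rsad2 and Ifitm3 among them at 0.09, 0.08 and 0.02, so the letters were also found in genes whose ratio was near 0. Capitals mark the element, which may be read on either strand, with overlapping matches run together.
Isg15, chr4:156200855-156200916, minus strand: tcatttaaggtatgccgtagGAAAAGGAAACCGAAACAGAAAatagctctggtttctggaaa
Bst2, chr8:71537567-71537622, minus strand: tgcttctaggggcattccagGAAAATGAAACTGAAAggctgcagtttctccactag
Gbp3, chr3:142559979-142560034, plus strand: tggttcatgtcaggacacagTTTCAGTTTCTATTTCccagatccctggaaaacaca
Phf11 (now Phf11a), chr14:59297523-59297571, minus strand: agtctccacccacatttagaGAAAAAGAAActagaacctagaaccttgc
Cxcl10, chr5:92349073-92349122, minus strand: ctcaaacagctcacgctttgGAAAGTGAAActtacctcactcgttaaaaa
Isg15 holds 3 overlapping matches, Bst2 and Gbp3 hold 2 each, and Phf11 and Cxcl10 hold 1.

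**Figure D4:**
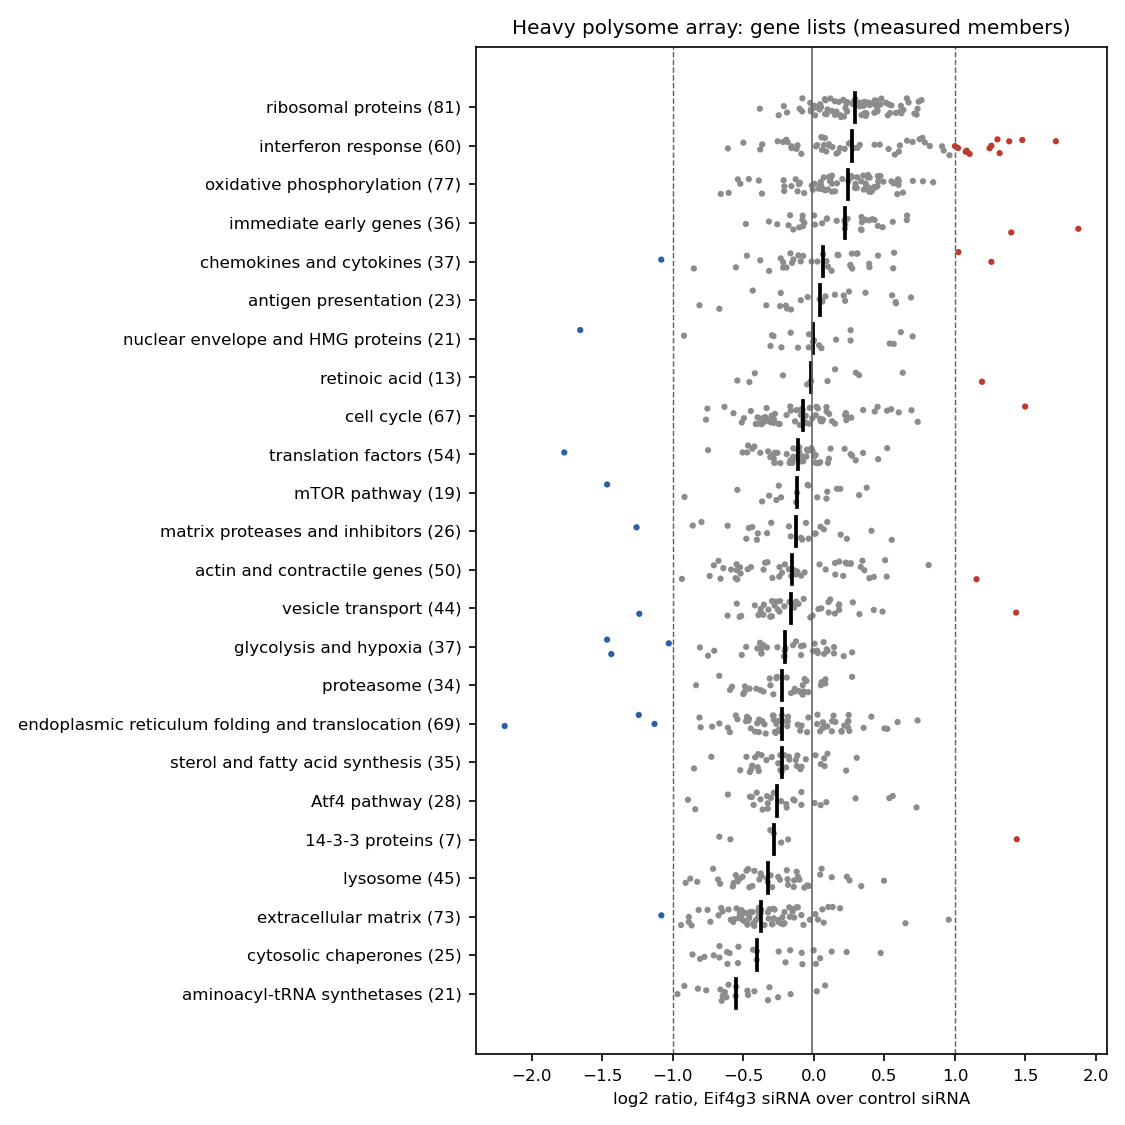
Log2 ratio, Eif4g3 siRNA over control siRNA, in heavy polysomes for the measured members of 24 gene lists, 1 point per gene, with the number measured in brackets, a black bar at the median and red and blue points past 2-fold. Ribosomal proteins, the interferon response and oxidative phosphorylation have the highest medians (0.30, 0.27 and 0.24) and cytosolic chaperones and aminoacyl-tRNA synthetases the lowest (-0.40 and -0.55), and 12 interferon genes lie past 2-fold.

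Ribosomal protein genes lay mostly above 0, by small amounts. Of 81 measured members 71 lay above 0 (against 48.3% of all measured genes), 0 passed 2-fold either way, and the median was 0.30 (0.36 for the 33 genes of the small subunit and 0.23 for the 48 of the large). The highest was Rpl39, with 87300 after Eif4g3 siRNA and 51431 after control siRNA (0.76 ± 0.21), followed by Rplp1 (0.74), whose product forms part of the stalk, Rpl37a (0.74) and Fau (0.73). The lowest was Rpl4, with 5566 against 7255 (-0.38 ± 0.21), then Rpl3 (-0.25), Rps15 (-0.21) and the stalk base gene Rplp0 (-0.19). In the top fraction the same list had a median of 0.50 and in light polysomes 0.10, and Rpl4, lowest in heavy polysomes, had 0.81 in the top fraction. Translation of these mRNAs is known to be governed by a pyrimidine tract at the start of the transcript, the TOP motif. Searched as a C at the RefSeq start followed by 4 or more C or T, it was found in 14 of the 60 members with a window (23.3%), in 2.95% of measured genes and in 2.505% of all windows. The tracts of 5 members were taken from these 14 and show the letters the search found. Capitals mark the tract from the gene's start.
Fau, chr19:6057937-6057966, plus strand: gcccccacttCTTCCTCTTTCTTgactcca
Rpl38, chr11:114668570-114668599, plus strand: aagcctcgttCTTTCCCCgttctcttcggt
Rplp2, chr7:141447641-141447670, plus strand: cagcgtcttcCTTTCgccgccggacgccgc
Rps6, chr4:86857348-86857377, minus strand: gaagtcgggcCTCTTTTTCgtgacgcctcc
Rpl15, chr14:18270967-18270996, minus strand: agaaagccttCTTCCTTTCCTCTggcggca
Of these, Fau had 0.73, Rpl38 0.67 and Rplp2 0.62, while Rps6 had 0.08 and Rpl15 -0.08. The windows of Rpl39 and Rpl37a, among the highest members, and of Rpl4, Rps15 and Rplp0, among the lowest, held no tract by this search. The search reads only from the exact RefSeq start, so it misses a tract whose transcript starts at another base. A window without a match does not show that the mRNA lacks the motif.

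Oxidative phosphorylation genes, which encode the respiratory chain and the ATP synthase of mitochondria, also lay above 0 in most cases. Of 77 measured members 59 were above 0 (against 48.3% of all measured genes) and 0 past 2-fold, with a median of 0.24. All 12 genes of complex IV were above 0, with a median of 0.42 and the highest value of the list for Cox7c, at 14765 after Eif4g3 siRNA and 8216 after control siRNA (0.85 ± 0.22). Complex II ran the other way, with 3 of 4 members below 0 and a median of -0.28. In complex I the accessory subunit gene Ndufa1 had 44115 against 25808 (0.77 ± 0.15), and the core subunit gene Ndufs1 6983 against 11029 (-0.66 ± 0.21). The flavoprotein gene of complex II, Sdha, had -0.54 ± 0.15. In the ATP synthase Atp5g3, which encodes the proteolipid of the rotor, had 0.63 ± 0.21. The catalytic subunit gene Atp5b averaged -0.52 ± 0.12, but its 3 probes disagreed, and the brightest, with 115276 after Eif4g3 siRNA and 111552 after control siRNA, gave 0.05 where the others gave -0.90 and -0.71. In the top fraction the list had a median of -0.37, and Cox7c and Ndufa1, above 0 in heavy polysomes, had -0.31 and -0.62 there.

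**Figure D5:**
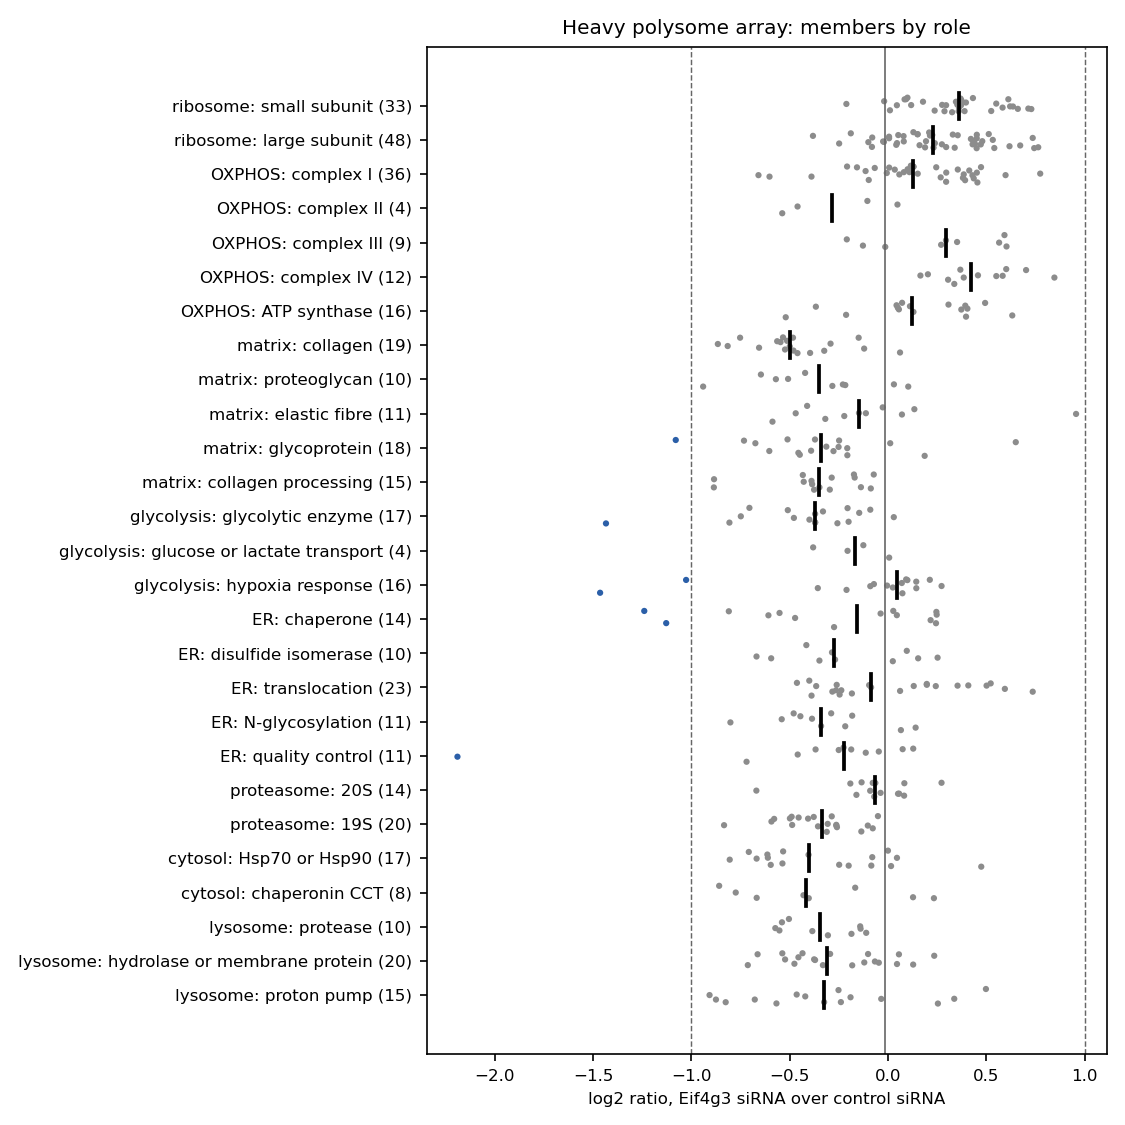
Log2 ratio, Eif4g3 siRNA over control siRNA, in heavy polysomes for the measured members of 8 gene lists split by role, 1 point per gene, with a black bar at the median and blue points past 2-fold. Complex IV lies wholly above 0 (median 0.42), and collagen processing and the 19S proteasome lie wholly below it (medians -0.35 and -0.33).

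Aminoacyl-tRNA synthetase genes, whose enzymes load amino acids onto tRNAs, had the lowest median of the lists. Of 21 measured members 19 lay below 0, where 51.7% of all measured genes did, the median was -0.55 and 0 passed 2-fold. Aars, of the alanine enzyme, had 4972 after Eif4g3 siRNA and 9714 after control siRNA (-0.97 ± 0.16), and Vars, of the valine enzyme, had 1640 against 3098 (-0.92 ± 0.16). At the other end Hars and Dars had 0.08 and 0.02. In light polysomes the list's median was 0.16 and in the top fraction 0.08, and Aars had 0.45 and -0.09 there. Genes of the Atf4 pathway, the amino acid starvation response that shares targets with the synthetases, had a median of -0.26, with 21 of 28 below 0. The proline and serine pathway genes Aldh18a1 and Shmt2 were lowest, at -0.89 ± 0.23 and -0.84 ± 0.21, and Chac1, an Atf4 target that degrades glutathione, was highest with 6485 against 3917 (0.73 ± 0.21). Atf4 itself had -0.09.

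The element that Atf4 binds with its partners, searched as TGATGNAA on both strands, was found in the windows of 5 of 14 synthetase genes (35.7%) and 9 of 24 pathway genes (37.5%), against 2.86% of measured genes and 3.97% of all windows. The 3 synthetase promoters below are shown because they carry these letters, here read on the opposite strand and marked in capitals.
Aars, chr8:111033710-111033757, plus strand: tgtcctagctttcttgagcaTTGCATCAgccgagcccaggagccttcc
Gars, chr6:55037951-55037998, plus strand: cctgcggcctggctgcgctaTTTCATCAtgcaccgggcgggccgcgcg
Tars, chr15:11399659-11399693, minus strand: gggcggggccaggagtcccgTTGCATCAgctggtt
Their ratios were -0.97 for Aars, -0.62 for Gars and -0.47 for Tars. Iars and Yars also held the element, at -0.55 and -0.25, and Sars and Qars, at -0.63 and -0.66, had windows without it.

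The 54 measured translation factors had a median of -0.11, with 38 below 0 (against 51.7% of all measured genes) and Eif4g3 as the 1 member past 2-fold. Of all measured genes 0.812% were past 2-fold either way. Eef2, the elongation factor that moves the ribosome along the mRNA, had 1432 after Eif4g3 siRNA and 2408 after control siRNA in heavy polysomes (-0.75 ± 0.13), 0.21 in light polysomes and 0.52 in the top fraction. Eif2b5, of the exchange factor of eIF2, had -0.50 ± 0.21 and Eif5a -0.47 ± 0.15. Of the 19 measured genes of the mTOR pathway, which controls initiation, Ddit4 was the 1 past 2-fold. Akt1s1, of the mTOR inhibitor PRAS40, had 1606 against 3030 (-0.92 ± 0.22). The 2 probes of Frap1, now named Mtor, disagreed, with 272 after Eif4g3 siRNA and 410 after control siRNA for one (-0.59) and 1147 against 606 for the other (0.92).

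Extracellular matrix genes, a main product of stromal cells, lay mostly below 0. Of 73 measured members 64 lay below 0 (51.7% of all measured genes did), and 1 was lower at 2-fold (0.306% of all measured genes were) and 0 higher. The median was -0.38, against 0.10 in light polysomes and -0.10 in the top fraction. The member past the limit was Spp1, osteopontin, with 80629 after Eif4g3 siRNA and 170455 after control siRNA (-1.08 ± 0.07), and it was low in light polysomes (-1.03) and the top fraction (-1.58) too. Collagen chains were below 0 in 18 of 19 cases with a median of -0.50, with Col5a3 at -0.87 and Col6a1 at -0.82. The 15 collagen processing genes were all below 0 with a median of -0.35, and the lysyl hydroxylase genes Plod1 and Plod3 had 681 against 1259 (-0.89 ± 0.22) and 2817 against 5204 (-0.89 ± 0.15). The proteoglycan gene Bgn had 3907 against 7499 (-0.94 ± 0.22) but 0.31 in light polysomes. Fbn1 and Mgp were the highest members. Fbn1, of the microfibril protein fibrillin, had 4173 against 2151 in heavy polysomes (0.96 ± 0.16), 1.49 in light polysomes and 1.23 in the top fraction, and its 2 heavy polysome probes gave 1.28 and 0.63. Mgp, an inhibitor of calcification, had 95087 against 60633 (0.65 ± 0.21).

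Among 26 measured matrix proteases and inhibitors, the 19 proteases had a median of -0.33 and the 7 inhibitors 0.05. Plat was the 1 past 2-fold, where 0.812% of all measured genes were past it either way. The gelatinase gene Mmp2 had 2205 after Eif4g3 siRNA and 3997 after control siRNA (-0.86 ± 0.22) and Mmp3 1457 against 2530 (-0.80 ± 0.22), while the inhibitor gene Timp2 had 151375 against 103239 (0.55 ± 0.21).

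In the secretory pathway the list of endoplasmic reticulum folding and translocation had 44 of 69 measured members below 0, a median of -0.23 and 3 members lower at 2-fold, Bcap29, Dnajc1 and Canx. Over all measured genes 51.7% lay below 0 and 0.306% were lower at 2-fold. The N-glycosylation genes lay below 0 in 9 of 11 cases with a median of -0.34. The calcium-binding chaperone gene Calr had 4050 after Eif4g3 siRNA and 7102 after control siRNA (-0.81 ± 0.16). The highest members of the list included Sec61g, a subunit of the protein channel, with 92457 against 55537 (0.74 ± 0.21), and Srp9, of the signal recognition particle, with 24877 against 16485 (0.59 ± 0.15). In vesicle transport, 12 of the 13 COPI coat genes were below 0, with Copb1 past 2-fold, and 7 of the 10 COPII coat genes were, with Sec31a at -0.61 ± 0.21. The tethers and cargo receptors had a median of -0.01 and held Trappc2, the 1 higher member. In the lysosome list 38 of 45 members were below 0 with a median of -0.33. The proton pump genes ranged from -0.91 ± 0.15 for Atp6v1h to 0.50 ± 0.15 for Atp6v1f. Sterol and fatty acid synthesis genes had 28 of 35 members below 0, a median of -0.23 and 0 past 2-fold, and the desaturase gene Fads1 was lowest (-0.85 ± 0.22).

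Glycolytic enzymes lay below 0 in 16 of 17 cases (against 51.7% of all measured genes), with a median of -0.37 and Eno1 past 2-fold. Of all measured genes 0.306% were lower at 2-fold. Hk1, of the entry enzyme hexokinase, had 468 after Eif4g3 siRNA and 818 after control siRNA (-0.81 ± 0.11). The hypoxia response genes kept with them on the list did not share this, with 9 of 16 above 0 (against 48.3% of all measured genes) and a median of 0.05. Besides Ddit4, the vasodilator gene Adm was lower at 2-fold, with 1400 against 2854 (-1.03 ± 0.22), and Vegfa, of the vascular growth factor, was highest (0.27 ± 0.10).

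Genes of protein folding and breakdown in the cytosol lay mostly below 0. Cytosolic chaperones had a median of -0.40 with 20 of 25 measured members below 0 (against 51.7% of all measured genes) and 0 past 2-fold. The chaperonin gene Cct6a had 411 after Eif4g3 siRNA and 745 after control siRNA (-0.86 ± 0.22) and the Hsp90 co-chaperone gene Stip1 3200 against 5592 (-0.81 ± 0.21), but Cct5 had 0.23 ± 0.20. The mitochondrial chaperonin gene Hspe1, kept on this list, had 45334 against 32647 (0.47 ± 0.21). In the proteasome all 20 genes of the 19S cap lay below 0, with a median of -0.33 and Psmd13 lowest (-0.83 ± 0.22). The 14 genes of the 20S core had a median of -0.07, from -0.67 for Psmb7 to 0.27 for Psma2.

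Genes of rapid response and of signals between cells were mixed. The 36 measured immediate early genes had a median of 0.22 with 25 above 0 (against 48.3% of all measured genes), and 2 were higher at 2-fold, Dusp2 and Egr1. Klf4 (0.66 ± 0.21) and Arc (0.66 ± 0.22) came next, and Btg2, an inhibitor of growth, was lowest (-0.48 ± 0.12). Among 37 measured chemokine and cytokine genes 2 were higher and 1 lower, where 0.507% of all measured genes were higher and 0.306% lower. Ccl17 had 355 after Eif4g3 siRNA and 174 after control siRNA (1.03 ± 0.24), and Cxcl5, a neutrophil attractant, had 145 against 306 (-1.08 ± 0.27) and -1.24 in light polysomes. Both were dim in heavy polysomes. Their background-subtracted signals after Eif4g3 siRNA and control siRNA were 183 and 209 for Ccl17 and 41.7 and 391 for Cxcl5. Il6 had 2892 against 4017 (-0.47 ± 0.07), -0.67 in light polysomes and -0.81 in the top fraction. Figf, now named Vegfd, a lymphatic growth factor gene, had -0.85 ± 0.22. In the retinoic acid list Aldh1a3, a synthetic enzyme gene, had 4694 against 2055 (1.19 ± 0.23), and the receptor gene Rarb was lowest (-0.54 ± 0.07).

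Cell cycle genes had a median of -0.08 over 67 measured members, with Ccng2 as the 1 past 2-fold. Of all measured genes 0.812% were past 2-fold either way. The D cyclin genes Ccnd3 and Ccnd1 had 4950 after Eif4g3 siRNA and 8405 after control siRNA (-0.76 ± 0.21) and 6294 against 9339 (-0.57 ± 0.07), while Gmnn, the inhibitor of DNA licensing, had 19688 against 11818 (0.74 ± 0.22). Actin and contractile genes had a median of -0.15 over 50 members. Their focal adhesion and cross-linker group was below 0 in 12 of 15 cases (against 51.7% of all measured genes), from Itga5, the fibronectin receptor chain (-0.93 ± 0.22). It also held Fhl1, a LIM protein gene, with 108682 against 48869 (1.15 ± 0.23) and 1.44 in light polysomes. The myosin heavy chain gene Myh9 had 76024 against 126807 (-0.74 ± 0.22), and the light chain gene Myl9 182029 against 128244 (0.51 ± 0.20). Arpc1b, of the actin-nucleating Arp2/3 complex, had 0.81 ± 0.21 in heavy polysomes and 2.65 ± 0.30 in the top fraction. Among nuclear envelope genes Lmnb1 stood alone past 2-fold, with Lmna at -0.31 ± 0.12 and Lmnb2 at -0.04. The chromatin protein gene Hmga2 had 0.70 ± 0.15 and Hmgn3 -0.92 ± 0.17, with -1.27 and -0.57 for the 2 probes of Hmgn3.

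The label of the cells was set against marker genes in the heavy polysome array. Of 17 fibroblastic stroma markers 14 were measured, among them Pdpn, Pdgfra, Pdgfrb, Thy1, Vcam1 and the T zone chemokine gene Ccl19, the last of these dim, with 92.4 after Eif4g3 siRNA and 86.2 after control siRNA. Cxcl13, Madcam1 and Lum were above background in neither channel. The median ratio of the 14 measured markers was -0.27, with 9 of 14 below 0, against 51.7% of all measured genes. Smooth muscle or pericyte markers were measured in 6 of 8 cases, with a median of 0.02. Some were bright, with 163066 after Eif4g3 siRNA and 113971 after control siRNA for Cnn1. The brightest probe of Acta2 had 174259 against 164142 and that of Tagln 162513 against 134566. Myh11 was dim, with 148 against 161. Endothelial markers were measured in 4 of 10 cases and were dim, from 92.7 to 160 after Eif4g3 siRNA and from 81.6 to 141 after control siRNA, and Pecam1, Emcn and Xlkd1, now named Lyve1, were above background in neither channel. The endothelial markers Cdh5, Flt4 and Tek were above background in the control channel alone. Of 11 leukocyte markers 5 were measured, the brightest being the lysozyme gene Lyzs, now named Lyz2, with 1662 after Eif4g3 siRNA and 1172 after control siRNA (0.50 ± 0.21), followed by the macrophage marker genes Cd68, with 198 against 274, and Csf1r, with 160 against 181. Cd74 was above background in the control channel alone, and the pan-leukocyte gene Ptprc, Cd79a, Itgam, Itgax and Emr1 in neither channel. Of 7 epithelial markers 2 were measured, the keratin genes Krt19, with 2174 after Eif4g3 siRNA and 3767 after control siRNA (-0.79 ± 0.22), and Krt18, with 146 against 98.6 (0.57 ± 0.25). Krt5 and Krt14 were above background in the control channel alone, and Cdh1, Krt8 and Tacstd1, now named Epcam, in neither channel. Because the siRNA channel was the dimmer on this array, markers seen in the control channel alone are not read as lower after Eif4g3 siRNA. The part of other cell types in the results was not tested.

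The 2-fold limit divides genes with nearly equal values. Just inside it on the higher side lay Ifih1 (1.0001), Mdfi (1.007) and Fbxl16 (1.008), and just outside Elmod2 (0.998), Sp110 (0.986) and Clstn3 (0.973). On the lower side Slit2 (-1.017), Fkbp9 (-1.022) and Atic (-1.025) were just inside, and Sfrp2 (-0.994), G6pdx (-0.991) and Lypla3 (-0.989) just outside. Each of these values lay within its own spot error of the limit. The genes with the most signal were above 0 as well, with S100a4, a calcium-binding protein gene, at 350282 after Eif4g3 siRNA and 172932 after control siRNA (1.02 ± 0.22), followed by Lars2 (0.55), S100a6 (0.48), Rhoc (0.47) and Myl6 (0.39). S100a4 had 0.27 in light polysomes and -0.16 in the top fraction.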

How the data were processed

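Heavy polysome RNA was read on 1 Agilent 4x44K 2-colour array. The deposited scanner files give a linear intensity per spot and channel and a log10 ratio of red over green with its error, both made by the Feature Extraction software of Agilent (version 10.5.1.1) according to the file headers. The deposited value table holds log2 ratios that equal that log10 ratio turned to log2 for 21096 measured single-spot probes (largest difference 2.79e-06). Its heavy column has a median of 0.22, so those values were not centred further. Probe positions are mm8, per the file headers.

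Mean signals were corrected with the local background medians by normexp (offset 50) and loess-normalised within the array, control spots at weight 0 (limma 3.58.1, R 4.3.3). Outlier spots (183) were left out and spots, then probes, averaged. Intensities include the offset. Against the software's ratios the slope was 0.712, and 0.399 among the 3601 genes with the least signal, so dim ratios are compressed. Errors were not rescaled. Current names came from a RefSeq table (GRCm38.p6), which 12770 measured names matched. Of 372 probes of named genes placed in both, 3 lay on another chromosome than their gene. The steps were tested on simulated data.

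Named genes were Eif4g1, Eif4g2 and Eif4g3, the 15 highest and 15 lowest past 2-fold with a gene symbol, at least median signal and probes on 1 side of 0, genes with 2 or more probes all past 2-fold, the 4 highest and lowest of each list, the 5 with most signal and 3 beside each limit. Others were chosen after their values were seen. Some named genes are not reported here. Members and lists were chosen with earlier results of these data known.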

Additional observations from a re-analysis of the deposited data

How the results depend on the processing

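Counts at 2-fold depended on how dim ratios were treated. With a normexp offset of 0 there were 151 higher and 74 lower genes, 67.1% of the calls being higher in place of 62.4%. With the scanner software's ratio there were 252 and 103 (71.0%), and with median centring in place of loess 202 and 124. At a limit of 1.5-fold there were 507 higher and 535 lower genes, so the share of higher calls was 48.7%. Of the 73 higher and 44 lower genes, 48 and 43 were also called without loess, 70 and 38 with the software's ratio and 72 and 44 with an offset of 0. Without the background filter the counts were 65 and 36, with probes of at least median signal 59 and 47, and with the strongest probe per gene 93 and 58. The 15 highest and 15 lowest genes kept their direction under each of these 6 alternatives, and passed 2-fold under each except 6 without the background filter, among them Lman1l, Eps15, Serinc5, Plat and Copb1, and Eps15 with its strongest probe. The median of the mTOR list, -0.12, turned to 0.0573 without loess and that of the leukocyte markers, 0.07, to -0.0818 with the software's ratio, and the cause was not tested. The median of all genes moved by less than 0.1 under each scaling. No replicate could be left out. No paired analysis was possible because each fraction had 1 array. Signal over background limits what can be seen, since 17689 probes stood above it in neither channel.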
